A study of Mus musculus with 15 samples.

Results

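The 7 members of the MS4A family described here, Ms4a4a, Ms4a4b, Ms4a4c, Ms4a6b, Ms4a6c, Ms4a6d and Ms4a7, were chosen by name from the 32372 genes counted in brain microglia. The choice was by name, with earlier results of these data known. Ms4a6d, Ms4a6b and Ms4a6c were the abundant members in every mouse, Ms4a4c and Ms4a7 were scarce in control mice, and Ms4a4b and Ms4a4a were barely counted. At day 1 after ATV:4D9, an antibody to the microglial receptor TREM2, Ms4a4c rose 6.07-fold, Ms4a7 2.66-fold, Ms4a6c 1.71-fold and Ms4a6d 1.37-fold against ATV:RSV, while Ms4a6b did not pass the test. By day 7 these 4 members had fallen back towards the control level. The folds are over all cells. The day 1 rise of Ms4a7 was smaller when cells with markers of macrophages, lymphocytes or monocytes were left out. That cut depends on depth. Cells with at least 3 macrophage markers were 1.33% of the deeper day 1 cells and 0.527% of ATV:RSV cells.

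Cells were taken with CD45 beads from cortex and hippocampus. The 15 mice were male, 3.5 months old and hTfR KI on C57BL/6J. hTfR KI mice carry a human transferrin receptor sequence, which the antibody transport vehicle (ATV) binds to cross into the brain, and all groups, controls included, shared this allele. Each mouse received 1 dose of 10 mg/kg, either of ATV:RSV, the control on the same vehicle, sampled at day 1, or of ATV:4D9, sampled at day 1, 7, 14 or 28, with 3 mice per group, and each of the 3 processing batches held a mouse of every group. No ATV:RSV mice were sampled at the later days, so antibody and time cannot be told apart there, and all comparisons with ATV:RSV share the same 3 mice. Since the beads take every CD45-positive cell, the labelled cell type was checked against markers, as described with Ms4a7.

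MS4A proteins cross the membrane several times and sit at the cell surface and in endosomes of blood and myeloid cells. CD20, the B cell antigen encoded by Ms4a1, is the best known of them. In humans, common variation in the MS4A gene cluster is associated with the level of soluble TREM2 in cerebrospinal fluid, and MS4A4A has been placed beside TREM2 at the membrane of macrophages. Soluble TREM2 is the ectodomain that the proteases ADAM10 and ADAM17 cut from the receptor. Rodents carry several Ms4a4 and Ms4a6 genes where humans carry fewer, so the mouse Ms4a4 and Ms4a6 members do not match human genes 1 to 1.

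All 7 members lie in 1 stretch of chromosome 19 in mm10. In order along the chromosome they are Ms4a7 (11321039 to 11336146, minus strand), Ms4a4a (11375523 to 11392790, plus), Ms4a4c (11404770 to 11427246, plus), Ms4a4b (11443553 to 11467055, plus), Ms4a6c (11469366 to 11482192, plus), Ms4a6b (11516512 to 11531256, plus) and Ms4a6d (11586604 to 11604849, minus). GENCODE M21 annotates each as protein coding. Ms4a4c overlaps the antisense pseudogene Gm5692, Ms4a6c overlaps BE692007 and Ms4a6b overlaps Gm19261, both on the opposite strand. The 3 prime ends, where the library reads start, differed enough to be told apart. Of the windows of 91 bases (the read length) in the last 500 bases of the transcripts, 30 of 1091 for Ms4a4c also occurred in Ms4a4b and 6 of 410 for Ms4a6c also occurred in Ms4a6b, and no such window was found for the other members.

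Neighbouring members share sequence upstream of their starts. The 250 bases before the RefSeq start (GRCm38.p6, plus strand) are shown for the pairs Ms4a6c and Ms4a6b, and Ms4a4c and Ms4a4b, because in each pair 1 member was called higher at day 1 and the other was not (the difference between Ms4a4c and Ms4a4b was not tested). Capitals mark the longest run that both members of a pair share. The windows are chr19:11469118-11469367 for Ms4a6c, chr19:11518309-11518558 for Ms4a6b, chr19:11407411-11407660 for Ms4a4c and chr19:11443308-11443557 for Ms4a4b.
Ms4a6c: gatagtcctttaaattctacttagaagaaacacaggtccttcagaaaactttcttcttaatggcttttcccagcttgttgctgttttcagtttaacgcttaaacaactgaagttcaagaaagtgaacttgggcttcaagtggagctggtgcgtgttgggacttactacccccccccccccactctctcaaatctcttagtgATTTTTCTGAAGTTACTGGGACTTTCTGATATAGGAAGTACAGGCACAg
Ms4a6b: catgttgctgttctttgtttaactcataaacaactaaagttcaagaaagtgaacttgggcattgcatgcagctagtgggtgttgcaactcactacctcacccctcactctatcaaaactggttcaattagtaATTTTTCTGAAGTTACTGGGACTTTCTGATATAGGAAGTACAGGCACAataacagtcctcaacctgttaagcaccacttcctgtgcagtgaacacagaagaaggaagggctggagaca
Ms4a4c: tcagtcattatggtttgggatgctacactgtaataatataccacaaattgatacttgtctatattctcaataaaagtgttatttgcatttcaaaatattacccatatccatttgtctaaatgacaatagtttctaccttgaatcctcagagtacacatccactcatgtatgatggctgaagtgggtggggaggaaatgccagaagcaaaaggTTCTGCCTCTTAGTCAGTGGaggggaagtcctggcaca
Ms4a4b: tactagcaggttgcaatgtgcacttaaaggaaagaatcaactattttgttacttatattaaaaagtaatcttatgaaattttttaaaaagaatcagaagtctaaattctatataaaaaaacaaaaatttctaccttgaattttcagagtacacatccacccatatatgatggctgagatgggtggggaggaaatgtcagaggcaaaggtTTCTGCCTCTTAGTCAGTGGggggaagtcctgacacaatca

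The Ms4a6 pair shared a run of 48 bases, at -49 to -2 from the start of Ms4a6c and at -118 to -71 from that of Ms4a6b. The Ms4a4 pair shared 20 bases, at -38 to -19 in Ms4a4c and at -41 to -22 in Ms4a4b. No other pair of the 7 RefSeq entries, which cover 6 members, shared a run over 9 bases. In all, 3 motifs were searched on both strands of these windows. The interferon-stimulated response element, bound by interferon regulatory factors, was in 2.98% of 32851 promoters of the same length and in 5 of the 9 interferon-list genes with an entry, and had no match in the 7 member entries. Only these windows were searched. For Ms4a4c the window (to 11407660) lies inside the GENCODE gene, which starts at 11404770. That of Ms4a6b (to 11518558) also does, with a GENCODE start of 11516512. The bases before these GENCODE starts were not searched. The PU.1 core GAGGAA, bound by the myeloid factor PU.1, was in 23.3% of promoters and matched once in Ms4a4c (-61 to -56) and once in Ms4a4b (-64 to -59). The AP-1 site TGANTCA was in 6.75% of promoters and matched once, before the second listed start of Ms4a7 (-81 to -75). A match is a description of these letters and not of binding.

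For each mouse the unique molecular identifiers (UMIs) of all its cells were added up, and a level is given as CPM, the UMIs of a gene per 1e+06 UMIs of the TMM-scaled library. A 3 prime library reads 1 end of each molecule, so the CPM were not divided by length. The mice held 5667 to 7596 cells and 32341960 to 70307384 UMIs each, and the median UMIs per cell were 8201.5 to 8995.5 in the 3 ATV:4D9 day 1 mice and 4694 to 6117 in the other 12 mice. Of the 100747 distinct cell barcodes, 1283 occurred in more than 1 mouse (2579 cells). The summed level of the monocyte and neutrophil markers was taken per 1e+06 UMIs of the plain total, without TMM. It was 169.1 CPM in 1 library, ATV:4D9 day 7 replicate 3, and 4.502 to 21.58 CPM in the other mice. Only 1 cell of that mouse passed as monocyte-like by these markers, and how the UMIs were spread over its cells was not tested. Members were counted at 85772 UMIs for Ms4a6d, 70171 for Ms4a6b, 39632 for Ms4a6c, 4262 for Ms4a4c, 887 for Ms4a7, 135 for Ms4a4b and 8 for Ms4a4a, and in CPM this order held in 14 of 15 mice. In the other mouse, day 14 replicate 2, Ms4a4b and Ms4a4a were both at 0 UMIs. With 8 UMIs among 707518630, Ms4a4a did not pass the filter on low counts and was not tested, and the other 6 members passed.

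Ms4a4c, a member known from blood and lymphoid cells, made the widest move. Its level was 3.99, 1.83 and 2.10 CPM in the ATV:RSV mice and 14.7, 15.4 and 16.6 CPM in the ATV:4D9 mice at day 1. At day 7 it was 4.84, 3.70 and 5.07 CPM, at day 14 2.49, 2.57 and 2.29 CPM, and at day 28 2.59, 2.98 and 2.18 CPM. All 3 day 1 mice stood above every other mouse, and the lowest day 7 mouse lay below the highest ATV:RSV mouse. Against ATV:RSV the log2 fold change was 2.60 at day 1 (SE 0.186, adjusted p = 4.56e-09) in limma-voom over all 14260 genes tested. The group means fell in the order day 1 (15.6 ± 0.975 CPM, SD, n = 3), day 7 (4.54 ± 0.736), ATV:RSV (2.64 ± 1.17), day 28 (2.58 ± 0.399) and day 14 (2.45 ± 0.143), and the last 3 did not differ beyond their spread.

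Ms4a6c, expressed in macrophages and dendritic cells, rose at day 1 as well. It stood at 45.1, 46.9 and 49.4 CPM in ATV:RSV mice and at 74.0, 80.2 and 88.4 CPM at day 1, with no overlap. At days 7, 14 and 28 its levels spanned 46.8 to 55.1, 43.8 to 51.2 and 42.7 to 54.3 CPM, ranges that all overlapped the control. The day 1 log2 fold change was 0.78 (SE 0.0899, adjusted p = 1.29e-06), and the other 4 groups, with means of 47.1 to 50.8 CPM, did not differ beyond their spread.

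Ms4a6d, a macrophage member that partners with the inhibitory receptor Vsig4, was the most abundant member. ATV:RSV mice had 109, 107 and 121 CPM and day 1 mice 149.5, 149.1 and 163 CPM, again without overlap. From day 7 on the 9 mice lay between 100.8 and 122 CPM, around the control range. The log2 fold change at day 1 was 0.46 (SE 0.0620, adjusted p = 7.32e-06), and 0.22 (adjusted p = 4.10e-03) when each mouse was scaled by its library size alone, without TMM.

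Ms4a6b, which is also expressed in T cells, behaved differently from its neighbours Ms4a6c and Ms4a6d. ATV:RSV mice had 105, 106 and 111 CPM and day 1 mice 103, 97.6 and 111 CPM, so 2 day 1 mice were below all controls and 1 was above (log2 fold change -0.05, SE 0.0543, adjusted p = 0.449). At day 7 it was 93.7, 88.0 and 93.2 CPM, below all 3 control mice. At day 14 it was 93.3, 100.5 and 93.4 CPM and at day 28 95.25, 100.4 and 103.9 CPM, below the controls as well, but neither day passed the test (adjusted p = 0.487 and 0.9998). Its call at day 1 depends on the scaling. With library size alone, under which the all-gene median log2 fold change went from -0.05 to -0.29, Ms4a6b was at -0.29 with an adjusted p of 9.75e-05.

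Ms4a7, which marks border and monocyte-derived macrophages more than resident microglia, stood at 1.21, 0.965 and 0.501 CPM in ATV:RSV mice and at 2.18, 2.12 and 2.65 CPM at day 1. From day 7 on it was between 0.609 and 1.13 CPM, inside the control range. The day 1 log2 fold change was 1.41 (SE 0.238, adjusted p = 6.87e-05) over all cells, and 0.83 (adjusted p = 0.0164) when cells with markers of macrophages, lymphocytes or monocytes were left out. Ms4a4b, best known from T and NK cells, was counted at 0.0954 to 0.164 CPM in ATV:RSV mice and 0.214 to 0.523 CPM at day 1 (log2 fold change 1.32, SE 0.758, adjusted p = 0.132), from 16 and 58 UMIs in all.

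At day 1, 4 of the 6 members tested were called (adjusted p under 0.05), all higher, where 69.2% of all genes were called in 1 direction or the other with 4942 of 14260 higher and 4930 lower. With library size alone the split was 3690 higher and 6959 lower, and the same members were higher, Ms4a4c by 2.36, Ms4a6c by 0.53, Ms4a6d by 0.22 and Ms4a7 by 1.18. The median log2 fold change of the 6 members was 1.05, against -0.05 over all genes. That median lies midway between Ms4a6c and Ms4a4b, and Ms4a4b had few UMIs and was not called. The abundant members Ms4a6c, Ms4a6d and Ms4a6b were all below it. Since most genes changed at this day, the count alone does not set the members apart. At day 7, where 3.98% of genes were called, 2 of 6 members were: Ms4a4c was higher (log2 fold change 0.85, SE 0.219, adjusted p = 0.0414) and Ms4a6b lower (-0.23, SE 0.0551, adjusted p = 0.0290). Ms4a6c (0.11), Ms4a6d (-0.05), Ms4a7 (0.32) and Ms4a4b (0.49) did not pass (adjusted p of 0.607 to 0.834). The 2 calls were borderline, and without ATV:RSV replicate 2 or 3 or day 7 replicate 1 or 3 neither remained. Without day 7 replicate 2, 1 of the 2 was called. At day 14, where 0.400% of genes were called, and at day 28, where 0% were, no member was called by limma-voom. Log2 fold changes at days 14 and 28 were -0.06 and 0.01 for Ms4a4c, -0.16 and -0.10 for Ms4a6b, 0.03 and 0.05 for Ms4a6c, -0.02 and 0.04 for Ms4a6d, -0.02 and 0.09 for Ms4a7, and -0.36 and -0.89 for Ms4a4b. At day 28 no gene was called by edgeR either, DESeq2 called 14 genes, and 571 genes had an unadjusted p under 0.05.

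**Figure D1:**
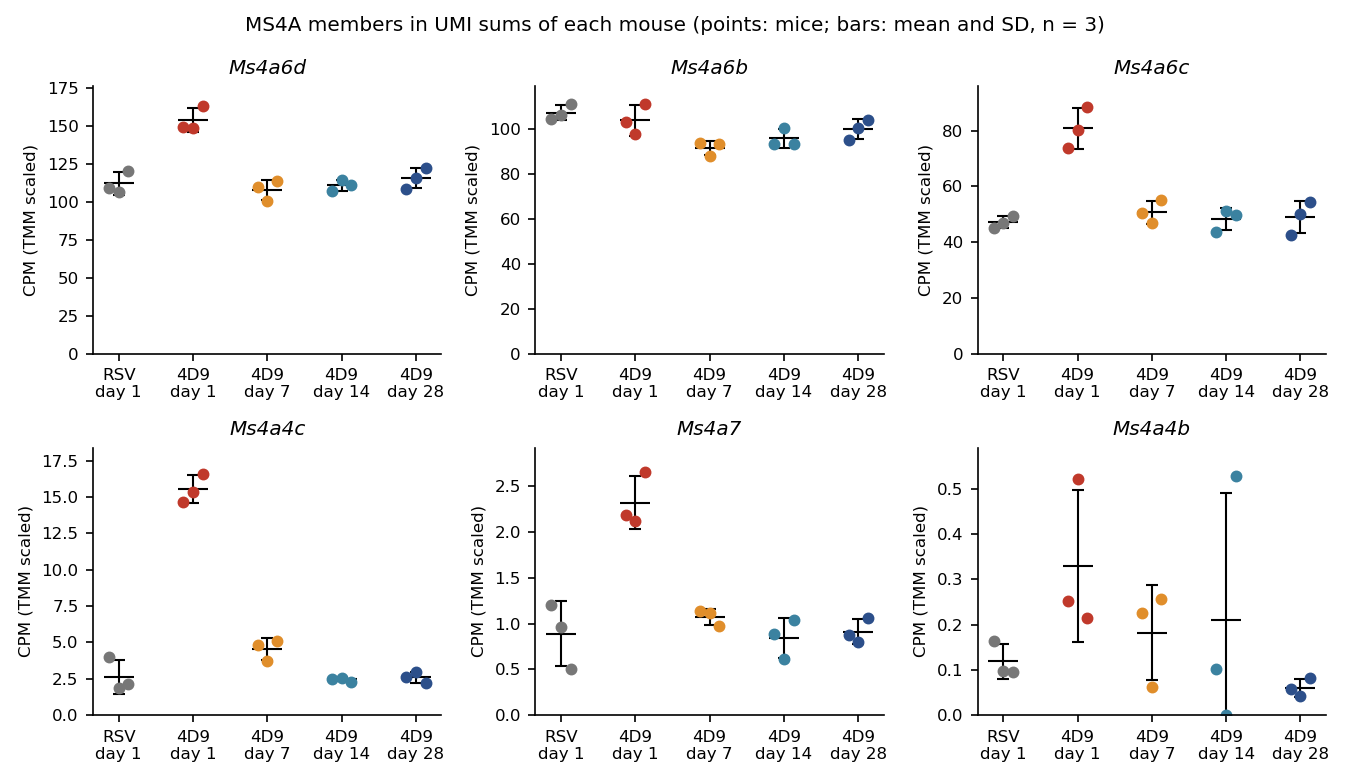
Level of 6 members in CPM (linear axes from 0) in the summed UMIs of each mouse. Points are mice and bars are the mean and SD of 3 mice; the lower bar of Ms4a4b at day 14 is cut at 0. The 3 day 1 mice sit above all ATV:RSV mice for Ms4a6d, Ms4a6c, Ms4a4c, Ms4a7 and Ms4a4b, and for Ms4a6b 2 lie below and 1 lies just above all ATV:RSV mice.

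Day 7 was also compared with day 1 directly, a contrast without the mean of the control mice, which still entered the estimate of the spread, the filter and the scaling. Here 66.9% of all genes were called, and 5 of 6 members were, all lower at day 7. The call of Ms4a6b was lost with library size alone (-0.03, adjusted p = 0.584). The log2 fold change was -1.75 for Ms4a4c, -1.10 for Ms4a7, -0.66 for Ms4a6c, -0.51 for Ms4a6d and -0.18 for Ms4a6b. Ms4a4b was at -0.83 and did not pass the test (adjusted p = 0.330).

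**Figure D2:**
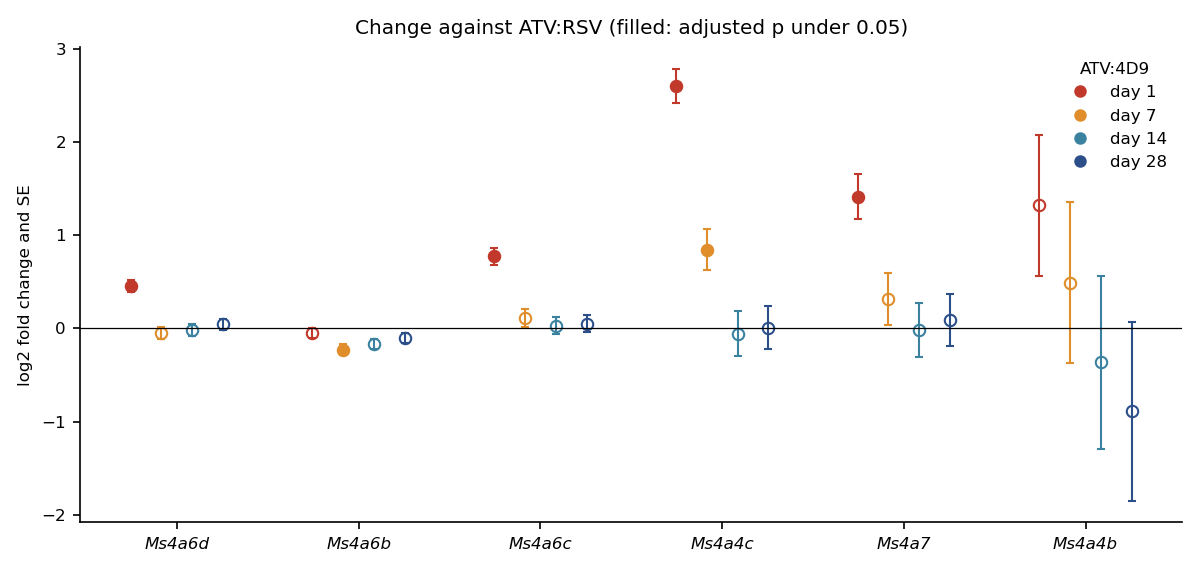
Log2 fold change of 6 members against ATV:RSV at days 1, 7, 14 and 28 of ATV:4D9, with bars of 1 SE from limma-voom. Filled points have an adjusted p under 0.05. Ms4a4c is the highest at day 1 (2.60), and at days 14 and 28 no point is filled.

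The ratio of 2 members within a mouse does not depend on how libraries are scaled. Ms4a6c to Ms4a6b was 0.439 ± 0.00746 UMIs per UMI in ATV:RSV mice (SD, n = 3) and 0.778 ± 0.0538 at day 1. It stayed above every control mouse at day 7 (0.554 ± 0.0326), day 14 (0.504 ± 0.0316) and day 28 (0.490 ± 0.0376). Ms4a6d to Ms4a6b went the same way, from 1.05 ± 0.0420 in controls to 1.48 ± 0.0400 at day 1 and 1.18, 1.16 and 1.16 at days 7, 14 and 28, again with no overlap. At day 28 the margin for Ms4a6c to Ms4a6b was narrow, with a lowest mouse of 0.449 against a highest control of 0.445, and the same 3 controls, sampled at day 1, stand behind every day. Ms4a6d to Ms4a6c was 2.38 in controls, 1.91 at day 1 and 2.13 at day 7, both without overlap, and 2.31 and 2.37 at days 14 and 28, which overlapped the controls. Exact two-sided permutation of 3 against 3 mice cannot go below p = 0.1. The comparisons without overlap all gave 0.1, or 0.12 after adjustment over the 12 ratio comparisons. Both ratios to Ms4a6b share its counts, so they are not separate observations, and ratios of other gene pairs were not counted. Ratios show unequal change and not which of the 2 genes moved. In CPM, Ms4a6b lay below all 3 control mice at days 7, 14 and 28, while Ms4a6c and Ms4a6d overlapped the controls.

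**Figure D3:**
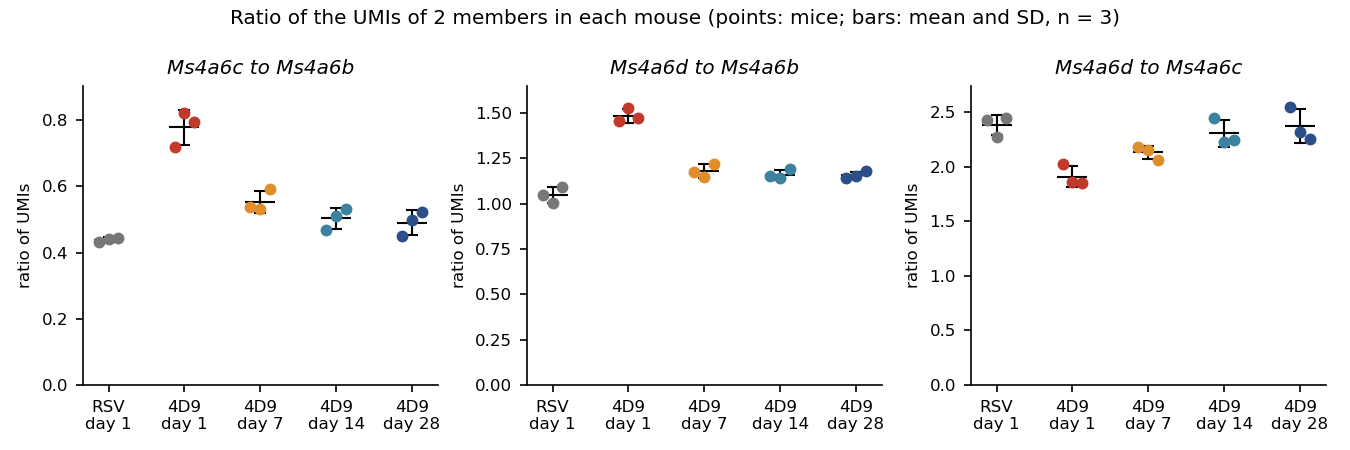
Ratio of UMIs of 2 members in each mouse (linear axes from 0), with points for mice and bars for mean and SD of 3 mice. Both ratios to Ms4a6b lie above the ATV:RSV mice at every day of ATV:4D9.

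To see which cells carried the members, cells were sorted by markers that include no member. A cell with at least 3 of 10 markers of border macrophages (Mrc1, Pf4, F13a1, Cd163, Lyve1, Cbr2, Cd209f, Clec10a, Folr2 and Dab2) is called a macrophage-marker cell here. There were 655 of them (0.642% of 102043 cells), 73 to 103 in each day 1 mouse and 19 to 44 in each of the others. They carried markers of both types, so they are not named macrophages here. By plain UMI total, Pf4 was at 243 CPM in them and 3.69 CPM in the microglia that remained, though Pf4 helped to make the class. Levels in this paragraph are on that scale. P2ry12, a receptor that defines microglia, was at 1404 CPM in them and detected in 96.9% of them, Sall1, a microglial transcription factor, was detected in 79.1%, and only 6 of the 655 had fewer than 5 of 8 microglial markers. Their median was 12233 UMIs against 5838 in the microglia that remained. Whether they are mixed droplets was not tested. The cut is not a border between types, as 1129 cells had 2 markers and 347 had 3. Only 9 cells passed as lymphocyte-like and 15 as monocyte-like. P2ry12 was detected in 77.8% and 73.3% of these, so its detection alone does not separate cell types here.

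Ms4a7 stood out in the macrophage-marker cells. Its level in them was 22.6, 22.1 and 19.2 CPM in the ATV:RSV mice and 77.9, 54.6 and 75.8 CPM in the day 1 mice. The day 7 mice had 24.0, 21.9 and 81.3 CPM, the day 14 mice 32.2, 11.5 and 33.1 CPM, and the day 28 mice 5.69, 16.2 and 30.8 CPM. In the other cells of the same mice it was between 0.367 and 1.20 CPM, so Ms4a7 was higher in the macrophage-marker cells in 15 of 15 mice. The mean log2 difference was 5.29 (SE 0.269, adjusted p = 8.15e-83, edgeR quasi-likelihood with the mouse as a term), where 5.17% of 11803 genes were called. Ms4a6c was the other member called of the 5 tested, with a log2 difference of 0.45 (SE 0.0735, adjusted p = 1.26e-07) and a median of 64.6 against 50.2 CPM, higher in 14 of 15 mice. Ms4a4c (0.65, adjusted p = 0.187), Ms4a6b (0.04, adjusted p = 0.742) and Ms4a6d (-0.02, adjusted p = 0.901) did not pass, and no direction is read for Ms4a4c, which was at -1.56 with at least 4 markers (adjusted p = 0.794). Ms4a4a and Ms4a4b, with 2 and 4 UMIs in these cells, were not tested.

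Over all mice 337 of the 887 Ms4a7 UMIs (38.0%) fell in the macrophage-marker cells. By group the share was 25.8% in ATV:RSV, 51.7% at day 1, 39.2% at day 7, 33.3% at day 14 and 11.9% at day 28, while for Ms4a6d, Ms4a6b, Ms4a4c and Ms4a6c it was between 0.555% and 2.99% in every group. The shares of Ms4a6b (2.28%), Ms4a6c (2.99%) and Ms4a6d (1.97%) were also highest at day 1. These shares move with depth, since deeper cells show more markers. After each cell was thinned to 3385 UMIs before markers were counted, 43 of 334 Ms4a7 UMIs (12.9%) were in such cells, 26.5% at day 1 and 1.96% in ATV:RSV. At this depth Ms4a7 was at 0.835 CPM in the other ATV:RSV cells. Thinning left 97 such cells at day 1, against 14 to 19 in each of the other groups, with Ms4a7 at 109.6 CPM in them and 1.52 CPM in the other day 1 cells. The direction of the class difference in the sums therefore held at equal depth at day 1, while outside day 1 only 7 Ms4a7 UMIs remained in such cells.

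The level of Ms4a7, here in CPM of the plain UMI total, followed the number of macrophage markers. In cells outside day 1 it was 0.451 CPM with no marker, 1.37 with 1, 9.11 with 2, 26.3 with 3, 26.2 with 4 and 29.3 with 5 or more. In day 1 cells it was 0.566, 1.49, 13.3, 32.2, 50.3 and 102 CPM in the same order. The exact 95% Poisson intervals pool the cells of all mice on each side and cover counting error only, not the spread between mice. They overlapped up to 4 markers but were 84.7 to 122 against 19.1 to 42.9 CPM in the cells with 5 or more (88 cells at day 1 and 53 outside). A difference between days in these cells was not tested over mice. Among day 1 cells, 4 had at least 3 macrophage markers and fewer than 5 microglial ones. They held 12 Ms4a7 UMIs (602 CPM, interval 311 to 1052) and no P2ry12. Outside day 1, 2 cells passed this definition, with a median of 1573 UMIs and 0 UMIs of every member. Whether the class effect on Ms4a7 differed between day 1 and ATV:RSV was tested as an interaction, in which 0.847% of genes were called. It was 1.01 (SE 0.452, adjusted p = 0.630) and did not pass, nor did that of Ms4a6c (0.40, SE 0.176, adjusted p = 0.593).

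**Figure D4:**
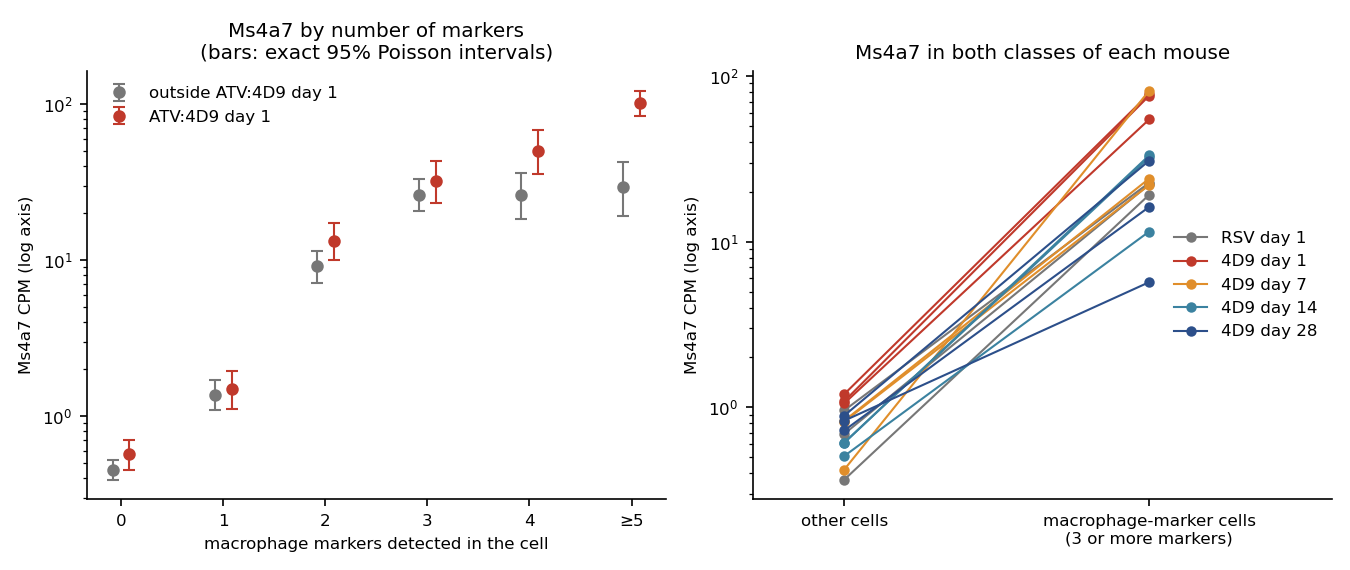
Left, Ms4a7 in CPM (by plain UMI total, log axis) against the number of macrophage markers detected in the cell, with cells pooled over mice and exact 95% Poisson intervals of counting error. Right, Ms4a7 in CPM (TMM-scaled, log axis) in the macrophage-marker cells and the other cells of each mouse, joined by a line per mouse. All 15 lines rise, and the cells with 5 or more markers stand at 102 CPM at day 1 and 29.3 CPM outside it.

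Of the 677 cells with an Ms4a7 UMI, 200 were macrophage-marker cells, and of the 41 cells with at least 3, 27 were. By day these were 24 of 32 at day 1 and 3 of 9 outside it, where the other 6 were microglia, and at 5 or more UMIs 5 of 8 and 2 of 3. A difference between days was not tested. Ms4a4b behaved unlike the rest. Its 34 UMIs in the 9 lymphocyte-like cells were 25.2% of its 135. Of these, 17 were in 1 cell of day 14 replicate 3, and without that mouse, a setting added after seeing the data, 17 of 111 (15.3%) remained in such cells. The 4 cells with at least 3 Ms4a4b UMIs were lymphocyte-like. For comparison, Ms4a6c had at least 3 UMIs in 2277 cells, 96.1% of them microglia, and Ms4a4c in 298 cells, 97.3% of them microglia.

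Among the microglia, the share of cells with a UMI was counted at an equal depth of 3385 UMIs, and again without thinning. For Ms4a4c the mean share was 0.770% in ATV:RSV mice, 3.13% at day 1, 1.34% at day 7, 0.751% at day 14 and 0.762% at day 28. Ms4a6c went from 14.7% to 19.0% and Ms4a6d from 32.5% to 36.6% at day 1, in each case with all day 1 mice above the controls. The share for Ms4a6b was 31.6% in controls, 26.6% at day 1 and 25.4% at day 7. Thinned cells have equal UMI totals, so these shares stand on the scale of library size alone, on which the sums of Ms4a6b were lower at day 1 too. Without thinning, Ms4a6b was at 46.5% in controls and 51.3% in the deeper day 1 cells, so no order at day 1 is read from it. Ms4a7 was at 0.220% and 0.327%, with overlapping ranges (0.105% to 0.288% and 0.234% to 0.407%), against 30.5% of the macrophage-marker cells and 0.471% of the microglia without thinning. No cell class without these genes was large enough to give the level of free RNA.

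Interferon-response cells were looked at outside day 1, where they were few. A microglial cell with at least 3 of 10 interferon-stimulated genes (Ifit1, Ifit2, Ifit3, Isg15, Rsad2, Irf7, Oasl2, Usp18, Ifi44 and Cxcl10) was put in this class. Deeper cells show more of these genes too, and the depth of this class was not compared. There were 47 to 213 such cells in each of the 12 mice, against 2127 to 2470 in each day 1 mouse. Ms4a4c was 46.7, 48.0 and 32.5 CPM in them in the ATV:RSV mice, 38.1, 36.2 and 45.6 at day 7, 21.6, 16.0 and 10.5 at day 14, and 35.5, 72.9 and 49.6 at day 28. In the other cells of these mice it was 1.47 to 3.85 CPM, so the classes did not overlap in any mouse. The log2 difference was 3.94 (SE 0.188, adjusted p = 1.45e-27), where 10.8% of 11847 genes were called, and 423 of its 1574 UMIs were in this class.

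The 4 members tested were all called, all higher in the interferon-list cells. Ms4a6c was at a median of 87.9 against 49.6 CPM (log2 difference 0.79, SE 0.0618, adjusted p = 3.54e-17, 12 of 12 mice). Ms4a6b, which did not rise in the sums at day 1, was at 151.5 against 99.5 CPM (0.59, SE 0.0502, adjusted p = 1.57e-15, 12 of 12 mice). With at least 2 interferon genes the differences were smaller, 0.47 for Ms4a6c and 0.23 for Ms4a6b. Ms4a6d differed least, at 130.4 against 113 CPM (0.16, SE 0.0481, adjusted p = 0.0174, 10 of 12 mice), and its call was lost in 4 of the 17 settings: without day 14 replicate 1 (adjusted p = 0.144), without day 28 replicate 2 (0.0810), with at least 2 interferon genes (0.0865) and under limma-voom with equal library sizes (0.0642). With at least 4 interferon genes it was 0.25. Ms4a7 had 7 UMIs in these cells, Ms4a4b 11 and Ms4a4a 0, and none of these was tested.

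**Figure D5:**
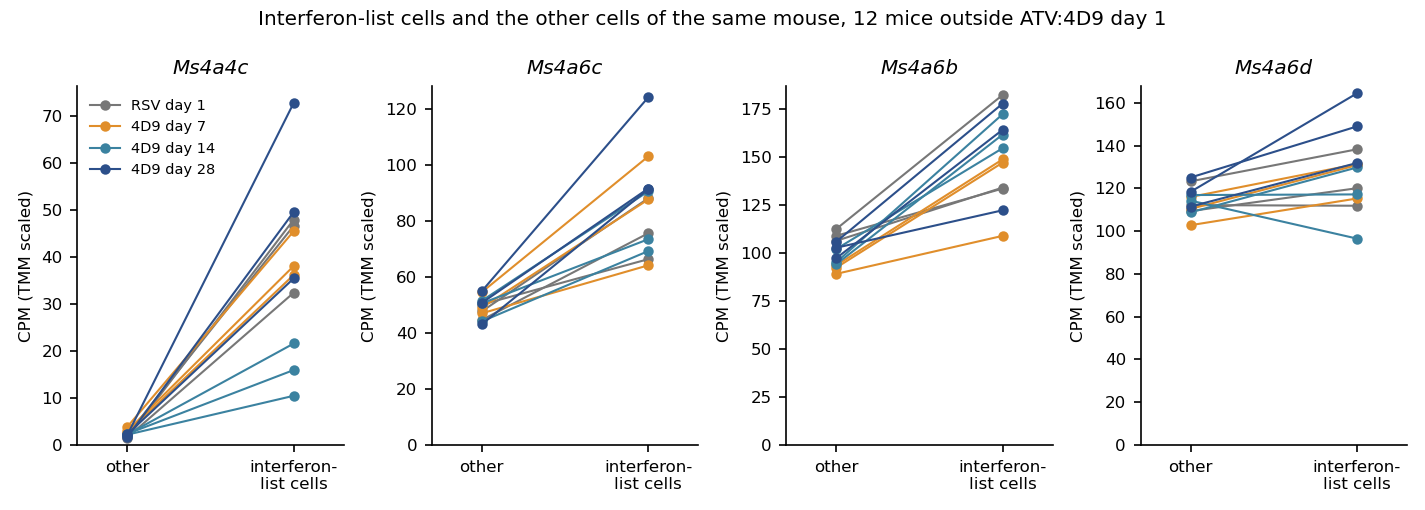
Level of 4 members in CPM (TMM-scaled, linear axes from 0) in the interferon-list cells and the other cells of each of the 12 mice outside day 1, joined by a line per mouse. Every line rises for Ms4a4c, Ms4a6c and Ms4a6b, and 10 of 12 rise for Ms4a6d.

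Cycling cells were many at day 1 alone, 1043 to 1501 per mouse, and were taken as microglia with at least 2 of 6 cell cycle genes. Here too deeper cells show more of the genes that make the class, and its depth was not compared. Of the 5 members tested, 4 were called, all lower than in the other cells of the same mouse, in a comparison where 50.3% of 12726 genes were called. Ms4a4c was at 7.29 to 11.4 against 13.5 to 17.4 CPM (log2 difference -0.82, SE 0.0986, adjusted p = 9.40e-10). Ms4a6d (-0.35), Ms4a6b (-0.26) and Ms4a6c (-0.16) were also called, lower in 3 of 3 mice, with adjusted p of 1.41e-14, 1.92e-09 and 3.40e-04. Ms4a7 was at -0.01 (adjusted p = 0.975), and Ms4a4b (11 UMIs in cycling cells) and Ms4a4a (0) were not tested.

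The 3 deposited clusters were made from these same genes, so member levels in them are described with no test. Levels here are CPM of the plain UMI total, over microglia. At day 1, 18416 of 20459 cells were in cluster 2, against 339 of 20301 in ATV:RSV mice. Ms4a4c averaged 14.5 CPM in cluster 2 at day 1, and 12.2 to 39.4 CPM in the much smaller cluster 2 of the other groups. In clusters 0 and 1 its group means were 1.86 to 3.88 CPM, day 1 included. Ms4a6b was highest in cluster 1, at 148 CPM in ATV:RSV against 97.9 in cluster 0 and 94.5 in cluster 2, and the same order held at day 1 (157.6, 101.4 and 90.5 CPM). Ms4a6d was also highest in cluster 1, at 135.9 CPM in ATV:RSV and 189 CPM at day 1, and within each cluster its day 1 mean was above that of ATV:RSV. For Ms4a6c, cluster 2 was the highest in ATV:RSV (71.5 CPM against 58.4 and 44.7), while at day 1 cluster 1 (73.5 CPM) and cluster 2 (71.8 CPM) were both above cluster 0 (52.2 CPM) and overlapped over mice.

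Genes whose levels went most like each member were sought among the 8841 or 8842 genes of at least 5 CPM, as a description in which mice share group and batch. Over 15 mice the nearest to Ms4a4c were Parp14 (Pearson r = 0.989), Ifitm3 (0.988) and Oasl2 (0.987), all interferon-stimulated. With day 1 left out, over 12 mice, they were Usp18 (0.935), Parp14 (0.935) and Isg15 (0.929), interferon-stimulated too. These 12 mice still differed in interferon-list cells. ATV:RSV replicate 1 held 186, against 47 and 82 in the other controls, and the day 7 mice held 122 to 213. How far single mice set these r was not tested. Oasl2, Usp18 and Isg15 are in the interferon list used above. Nearest to Ms4a6c were Fam136a, Akip1 and Atxn10 over 15 mice (0.977 to 0.980), and Ifi27 (0.929), Isoc2b (0.895) and Unc93b1 (0.867) over 12. For Ms4a6d they were Tmbim4, Mtx2 and Abhd12 (0.978 to 0.980) and, over 12 mice, Sar1b (0.911) and Tmed10 (0.904), and for Ms4a6b Sypl, Gamt and Lix1 (0.828 to 0.872) and Tm6sf1, Prps2 and Psma6 (0.917 to 0.929). Ms4a7 went with Cxcl11 (0.941), Huwe1 (0.925) and Hivep2 (0.925) over 15 mice and with Dcp2, Carm1 and Qrich1 (0.811 to 0.824) over 12. Ms4a4b, at few UMIs, reached 0.731 to 0.755 with Abt1, Scaf4 and Sirt6 and 0.757 to 0.775 with Zfp593, Zfp212 and Xrcc6. Over 15 mice 1805 genes had an r over 0.9 with Ms4a6c, and over 12 mice 1 did, so the first set mainly tracks day 1. Among members, Ms4a6c and Ms4a6d had an r of 0.958 over 15 mice and 0.629 over 12, and Ms4a4c and Ms4a6c had 0.889 and 0.187.

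Of 13 other MS4A genes, 2 passed the filter, Tmem176a and Tmem176b, channel-like relatives expressed in myeloid cells, and in ATV:RSV mice the CPM of both was above that of every member, on a scale not divided by length. Both fell at day 1, Tmem176a from 270.0 ± 13.1 to 181 ± 33.9 CPM (log2 fold change -0.60, SE 0.0963, adjusted p = 4.46e-05) and Tmem176b from 455.5 ± 28.9 to 327.5 ± 56.1 CPM (-0.49, SE 0.0917, adjusted p = 1.91e-04). Neither was called at the later days, but with library size alone 1 of the 2 was called lower at day 7. Ms4a2, Ms4a5, Ms4a10, Ms4a13 and Ms4a18 had no UMI in any mouse. Ms4a3, a gene of granulocyte progenitors, had 3 UMIs, all in day 7 replicate 3, the mouse with the high monocyte and neutrophil markers.

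Around TREM2 itself, 14 genes of its signalling, its cleavage and its ligands were all tested, and at day 1 7 rose and 3 fell, with a median log2 fold change of 0.15. These 10 calls of 14 are near the 69.2% called among all genes, so the count says nothing particular about the list. With library size alone 2 rose and 6 fell. Trem2 was at 2623 ± 154.7 CPM in ATV:RSV mice and 2383 ± 114.7 CPM at day 1, a small fall (log2 fold change -0.14, SE 0.0478, adjusted p = 0.0176, and -0.38 with library size alone), and at 2615 ± 16.1 CPM at day 7 (adjusted p = 0.987 against ATV:RSV). Its signalling adaptor Tyrobp rose (0.37, adjusted p = 3.29e-06, and 0.13 with library size alone), and the kinase Syk, which acts after Tyrobp, fell (-0.95, SE 0.0903, adjusted p = 1.35e-07). The sheddases that release soluble TREM2 depended on the scaling. Adam17 was at 0.32 (adjusted p = 1.21e-05) and at 0.08 with library size alone (adjusted p = 0.139), and Adam10 turned from 0.11 (adjusted p = 0.0300) to -0.13 (adjusted p = 6.71e-03). Grn, which encodes the lysosomal protein progranulin, rose by 0.58 (adjusted p = 4.65e-09), and by 0.34 with library size alone. Apoe, a lipid carrier and TREM2 ligand, spanned 304 to 571 CPM at day 1, wider than the 503 to 553 CPM of controls which it overlapped (-0.42, adjusted p = 0.0432, and -0.66 with library size alone), and rose at day 7 (1.15, adjusted p = 6.93e-04). At day 7 Apoe and Grn (0.17, adjusted p = 0.0288, and 0.08 with adjusted p = 0.226 with library size alone) were called in this list, and at days 14 and 28 no gene of it was. With library size alone 1 gene of the list was called higher and 1 lower at day 7. Soluble TREM2 protein was not analysed here.

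Summed marker levels moved with day 1 as well. The 8 microglial markers together were 19100 to 20500 CPM in ATV:RSV mice and 12630 to 14230 CPM at day 1, with 7 of 8 called lower. The marker sums here are CPM of the plain UMI total, while the calls are from the TMM-scaled fit unless stated. With library size alone 8 of 8 were called lower at day 1. At day 7 they were at 17200 to 17710 CPM, with 3 of 8 called lower. The 10 macrophage markers were 30.1 to 33.5 CPM in ATV:RSV, 35.9 to 43.6 at day 1 and 21.1 to 30.9 CPM later, with 4 of 10 called higher at day 1 and none later (with library size alone, 4 higher and 1 lower at day 1 and 1 lower at day 7). Among all genes 69.2% were called at day 1 and 3.98% at day 7. The markers did not move together. In TMM-scaled group means at day 1, Dab2 went from 11.3 to 18.9 CPM and Pf4 from 5.50 to 11.2, but Mrc1 from 7.99 to 6.57. Most UMIs of Dab2 (7630) and Mrc1 (3798) were in cells classed as microglia, against 752 and 858 in the macrophage-marker cells. All 10 interferon-list genes were called higher at day 1, and 2 of them at day 7. Without the macrophage-marker, lymphocyte-like and monocyte-like cells, the day 1 log2 fold change of Ms4a7 was 0.83 in place of 1.41, while those of Ms4a4c (2.63), Ms4a6c (0.76) and Ms4a6d (0.46) moved by at most a few hundredths. This cut left out a larger share of the deeper day 1 cells than of the control cells. In sums per mouse, more cells that express a gene and more RNA per cell cannot be told apart.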

How the data were processed

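Single-cell libraries of CD45-enriched brain cells of 15 mice were read from the deposited UMI counts. Per the labels' processing notes, the authors mapped reads to mm10 with Cell Ranger 4.0.0 (the methods name later versions), and the deposited table gave the UMI counts, the percent of mitochondrial UMIs (at most 10.0), the mouse and the Seurat cluster of each cell. The cell filters and any removal of doublets are not given in the sources used here, and 1 alternative drops, per mouse, the 5% of cells highest in UMIs, where doublets would lie. Members, gene lists and marker lists were chosen with earlier results of these data known.

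Counts were summed per mouse, filtered with filterByExpr and TMM-scaled. The test was limma-voom over all 15 mice, in R 4.3.3 with edgeR 4.0.16 and limma 3.58.1, with Benjamini-Hochberg adjustment over all genes and a threshold of 0.05. Values with ± are means and SDs. Replicates are separate mice. Sums per mouse and class were to be tested with limma-voom too, but in simulated data it called many unchanged genes there, so edgeR quasi-likelihood was used with the mouse as a term, at least 10 cells per mouse and class. Thinning drew 3385 UMIs per cell (the 10th percentile) and left out 10204 shallower cells (3.93% to 17.8% per mouse). Correlations used log2 CPM of genes with a mean of at least 5 CPM. Scripts were tested on simulated data. The labels state that each batch holds every condition, so the batch number pairs the mice. As a check, each mouse was set against its group mean: the mean r of these deviations was 0.0358 within a batch (-0.269 to 0.272, 30 pairs) and -0.0176 between batches.

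The text gives all 7 members across the comparisons (Ms4a4a passed the filter in none), up to 6 genes of the other MS4A and soluble TREM2 lists with the largest absolute log2 fold change among those called at day 1, Trem2, and the 3 genes most correlated with each member over 15 and over 12 mice, of which 1 is not reported here. Adam10, Adam17 and Ms4a3 were named after their values were seen. Symbols were matched to GENCODE M21 for 31506 of 32372 genes. Intervals cover counting error only. A further control animal in the labels was not analysed here. Alternatives were edgeR quasi-likelihood and DESeq2 1.42.0, other scaling, no filter, a batch term, microglia only, thinned cells, other marker cuts and leaving out each mouse.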

Additional observations from a re-analysis of the deposited data

Results flagged for a closer look

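The difference between day 7 and day 1 of ATV:4D9 was tested directly in limma-voom, and 5 members differed (adjusted p under 0.05), each lower at day 7. The log2 differences were -1.755 for Ms4a4c (SE 0.159, adjusted p = 8.49e-08), -0.179 for Ms4a6b (SE 0.0548, adjusted p = 9.08e-03), -0.6638 for Ms4a6c (SE 0.0904, adjusted p = 8.10e-06), -0.509 for Ms4a6d (SE 0.0623, adjusted p = 2.52e-06) and -1.097 for Ms4a7 (SE 0.229, adjusted p = 5.35e-04). In this comparison 66.9% of all genes were called, and the difference for Ms4a6b did not hold with library size alone (-0.03, adjusted p = 0.584).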

How the results depend on the processing

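Across the settings that left out 1 mouse, 286 of 318 log2 fold changes of members kept both their direction and their side of the threshold, and across the other settings 283 of 308 did. The sign turned in 21 and 18 values, none of them called in either fit, so no direction is read from them. Against ATV:RSV, Ms4a4b at day 14 turned from -0.36 to 0.83 (edgeR), 0.83 (DESeq2) and 0.070 (replicate block). Ms4a4c at day 28 turned from 0.01 to -0.047, -0.043 and -0.025 in the same 3, -0.011 with library size alone and -0.11 with thinned cells. Without the 5% of cells with most UMIs, Ms4a4c and Ms4a7 at day 14 were at 0.057 and 0.084, Ms4a6c at day 14 was at -0.024 with library size alone, and Ms4a7 at day 7 was at -0.00053 in microglia only. In macrophage-marker cells Ms4a4c was at -1.56 with at least 4 markers (0.65 before) and Ms4a6d at 0.043 under limma-voom with equal sizes. In cycling cells Ms4a7 was at 0.037 and 0.056 with at least 3 and 4 markers, 0.17 under limma-voom with equal sizes and 0.018 with library size alone. Without 1 mouse the ranges that crossed 0 were -0.093 to 0.0017 for Ms4a6b at day 1, -0.093 to 0.00098 for Ms4a6d and -0.034 to 0.60 for Ms4a7 at day 7, -1.63 to 0.91 for Ms4a4b, -0.27 to 0.31 for Ms4a4c, -0.014 to 0.10 for Ms4a6c, -0.052 to 0.037 for Ms4a6d and -0.37 to 0.27 for Ms4a7 at day 14, -0.21 to 0.38 for Ms4a4c, -0.027 to 0.15 for Ms4a6c and -0.26 to 0.37 for Ms4a7 at day 28, -0.058 to 0.029 for Ms4a6d in macrophage-marker cells and -0.24 to 0.17 for Ms4a7 in cycling cells. The count of members called at day 7 was 2, and 1 under edgeR quasi-likelihood, with no filter on low counts and with cells thinned, where Ms4a4c had an adjusted p of 0.0619, 0.0643 and 0.0586. Without 1 mouse it was 0 to 1, or 2 without ATV:RSV replicate 1, with adjusted p up to 0.203 for Ms4a4c and 0.124 for Ms4a6b. Under limma-voom with library sizes made equal by thinning, an alternative added after seeing the data, 1 member instead of 2 was called in the macrophage-marker cells and 2 instead of 4 in the interferon-list cells. With so few UMIs Ms4a7 in the first and Ms4a4c in the second were not tested there, and Ms4a6d had an adjusted p of 0.0642. The share of Ms4a7 UMIs in macrophage-marker cells was 38.0%, 52.3% with at least 2 markers, 25% with at least 4, and 12.9% with markers counted after thinning, also added after seeing the data. For Ms4a4c, Ms4a6b, Ms4a6c and Ms4a6d it was at most 3.97% at these marker numbers.

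With the batch as a replicate block, pairing the mice, no call of a member changed. Ms4a4c at day 7 was at 0.82 (adjusted p = 0.0319) and Ms4a6b at -0.23 (adjusted p = 0.0125). Counts over all genes moved more, at day 7 from 568 to 1014 with the block, 871 with DESeq2, 1199 with library size alone, 331 with ATV:RSV replicate 2 left out and 334 with day 7 replicate 3 left out, at day 14 from 57 to 122, 132 and 19 in the first 3 of these, 16 without ATV:RSV replicate 3, 30 without day 14 replicate 2 and 0 without day 14 replicate 1, and at day 28 from 0 to 2 with the block, 14 with DESeq2 and 1 with thinned cells. Shares of cells with a UMI moved by more than 1 SD in 32 of 35 values without thinning. At 8 UMIs nothing can be said of Ms4a4a, and at 135 UMIs no change of Ms4a4b was called. What size of change could be detected at that count was not tested.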
